A study of Strongylocentrotus purpuratus with 17 samples.

Results

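Dense clusters of active regulatory elements were examined in embryos of the sea urchin Strongylocentrotus purpuratus collected at 20 h. A cluster was a chain of 4 or more elements of the 20 h list in which every gap, from the end of one element to the start of the next, was 3000 bp or less. This rule chose 4542 elements in 932 clusters out of 37796 elements at 20 h, or 12.0%, and out of 128949 elements in the 4 lists of the series. The elements of chains of 1 are called isolated and numbered 20244. The remaining 13010 lay in pairs and triples. The members were chosen by their measured positions in the 20 h list, so the density, size and span of the clusters are descriptions. The other lists and the gene annotation were not used by the rule.

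The elements came from PRO-seq, which maps engaged RNA polymerases: nuclei are given biotin-tagged nucleotides, and the RNA that takes them up is captured and sequenced. The lists held dREG peaks, the calls of a classifier that finds promoters and enhancers from the divergent transcription that starts at both. All embryos had the genotype label wild and were grown at 15 °C, with no treatment named. The 8 h list stood for 2 libraries of 1 biological replicate and held 56158 elements. For 12 h there were 4 libraries of 3 replicates and 30570 elements, and for 20 h 5 libraries of 4 replicates. The 72 h list, from 2 libraries of 2 replicates, held 4425. Per the labels, the libraries of 12 h and 20 h had been part of earlier work. Stages were taken from the sample titles and the list each library is assigned to. The tissue label names 8 h embryos for every library, 12 h, 20 h and 72 h ones included, so every comparison of stages rests on the titles. Elements were given as positions with no score or read number. The depth behind an element is therefore unknown, each list pools its libraries, and no value has a replicate error or a p-value. Intervals given here are 95% intervals of counting error alone.

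Genes that act as switches in development are often controlled by several separate enhancers spread over the introns and flanks of the gene, each driving a part of its expression in space or time. An active enhancer is transcribed in both directions for a short distance, as a promoter is, so that PRO-seq shows both. In the sea urchin embryo such regulatory DNA has been studied closely at genes that specify endoderm, skeleton-forming cells and ectoderm. A run of neighbouring elements can therefore mark several enhancers of one gene, the promoters of several genes, or both.

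Most clusters were small. Clusters of 4 elements numbered 539 and clusters of 5 numbered 216, so that 81.0% had 4 or 5, while 56 had 8 or more and 21 had 10 or more. The median span was 7370 bp, with quartiles of 6038 and 9415 bp, and elements covered 44.7% of the 7.56 Mb that the clusters spanned. Gaps inside clusters had a median of 1010 bp, against 8790 bp between all neighbours on a scaffold, and 196 of 3610 gaps (5.43%) were 100 bp or less. Just outside the rule lay 1438 chains of 3, with a median span of 4510 bp against 6370 bp for clusters of 4. Gaps between 2900 and 3000 bp numbered 203 over all chains, and gaps over 3000 and up to 3100 bp, just too long to join elements, numbered 212. Cluster elements had a median width of 660 bp and isolated elements 610 bp.

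**Figure D1:**
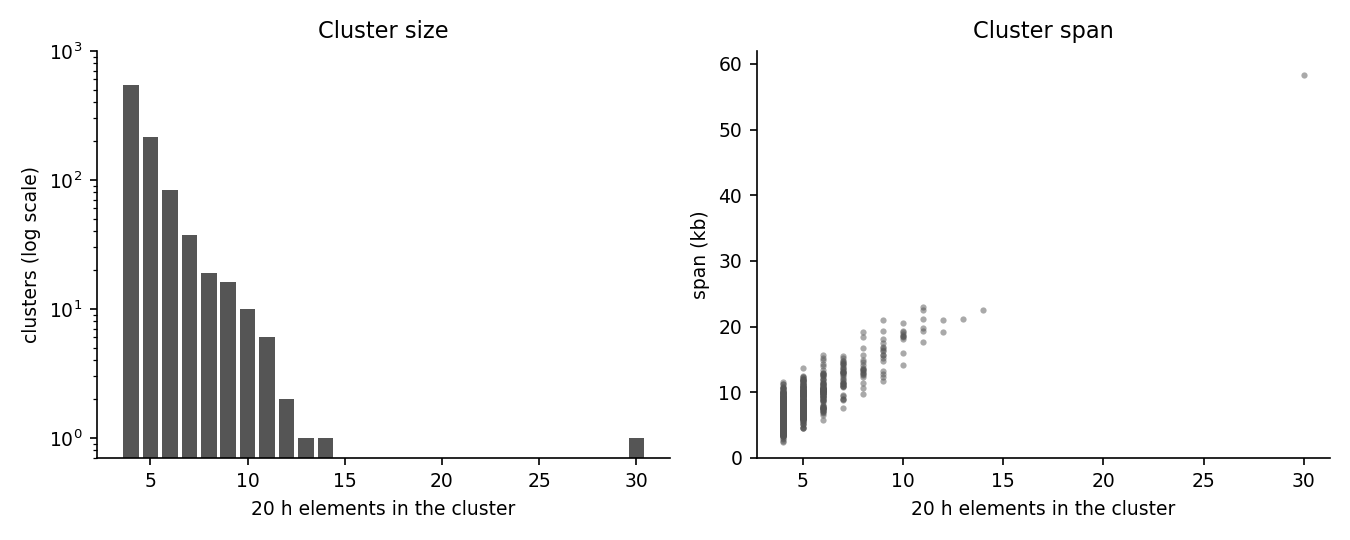
Left, number of clusters (log scale) by the number of 20 h elements they hold. Right, span in kb of each of the 932 clusters against its number of elements, 1 point per cluster. The cluster of 30 elements and 58350 bp stands apart from the others, which held at most 14.

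Cluster elements had been called at the earlier stages less often than isolated elements. An element counted as called in another list if it overlapped an element there by at least 1 bp. At 8 h this held for 2312 of 4542 cluster elements, 50.9% (Wilson interval 49.4 to 52.4), against 65.3% of isolated elements (64.6 to 65.9) and 61.2% of all 20 h elements. The difference was -14.4 percentage points (Newcombe interval -16.0 to -12.8). With the cluster rather than the element as the unit of error, the interval was -16.2 to -12.5. At 12 h the shares were 39.9% of cluster elements (38.5 to 41.3), 53.0% of isolated elements (52.3 to 53.7) and 49.3% of all 20 h elements, a difference of -13.1 points (-14.7 to -11.5). In turn, 42.5% of cluster elements (41.1 to 43.9) were called at 20 h alone, against 29.8% of isolated elements (29.2 to 30.5) and 33.4% of all 20 h elements.

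These shares changed step by step up to the threshold of the rule and little beyond it. The share called at 8 h was 65.3%, 60.1% and 55.5% in chains of 1, 2 and 3. In clusters of 4, 5, 6 and 7 it was 52.1%, 49.1%, 52.2% and 52.1%, and in larger ones 47.9% (43.7 to 52.1). The intervals of these 5 size classes overlapped. At 12 h the share was 53.0%, 48.3% and 43.6% in chains of 1, 2 and 3 and between 38.1% and 41.1% in the 5 classes of cluster.

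**Figure D2:**
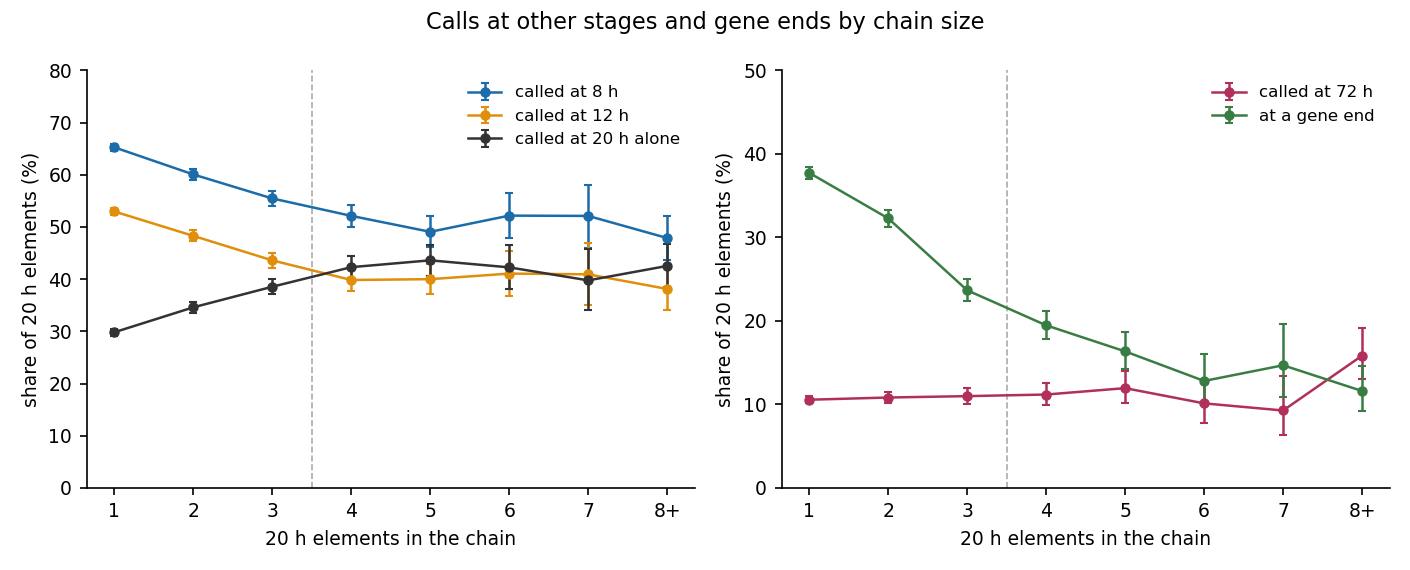
Share of 20 h elements (%) by the number of elements in their chain, with Wilson 95% intervals as bars; the dashed line marks the threshold of 4. Left, shares called at 8 h, at 12 h and at 20 h alone. Right, shares called at 72 h and at a gene end, the latter going from 37.7% for isolated elements to 11.6% in clusters of 8 or more.

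At 72 h the order was the other way and the difference small. Of the cluster elements 11.7% (10.8 to 12.7) overlapped a 72 h element, against 10.6% (10.1 to 11.0) of isolated elements and 10.8% of all 20 h elements. The difference was 1.13 points (0.135 to 2.19). Restricted to the 21 scaffolds on which genes could be placed, it was 0.787 points (-0.236 to 1.86), an interval that holds 0. In clusters of 8 or more elements the share was 15.8%, from 86 of 543 elements, and in clusters of 4 to 7 it lay between 9.27% and 11.9%. Elements called at all 4 stages made up 9.75% of cluster elements, 9.82% of isolated elements and 9.76% of all 20 h elements.

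Cluster elements lay at gene ends less often than isolated ones. An element was called a gene-end element if it overlapped the 500 bp either side of either end of an annotated gene. On the placed scaffolds this held for 738 of 4407 cluster elements, 16.7% (15.7 to 17.9), for 37.7% of isolated elements (37.1 to 38.4) and for 32.3% of all 20 h elements. The difference was -21.0 points (-22.3 to -19.7). Elements within gene bodies, clear of both ends, made up 42.5% of cluster and 30.3% of isolated elements, and elements between genes 40.8% and 32.0%. At gene ends the median widths were 850 bp in clusters and 820 bp among isolated elements. Inside genes they were 640 and 580 bp.

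Location was therefore held fixed in the comparison with other stages. At gene ends, 79.7% of cluster and 84.5% of isolated elements were called at 8 h, a difference of -4.79 points (-7.95 to -1.91). Inside genes the shares were 41.1% and 48.4%, a difference of -7.38 (-9.94 to -4.79), and between genes 48.8% and 58.5%, a difference of -9.73 (-12.3 to -7.10). Each was smaller than the difference over all locations, and each interval left out 0. At 12 h the 3 differences were -7.17 points (-10.7 to -3.78) at gene ends, -3.03 (-5.44 to -0.559) inside genes and -7.64 (-10.1 to -5.08) between genes.

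At 72 h the difference grew when location was held fixed. Of gene-end elements in clusters 35.9% (32.5 to 39.4) were called at 72 h, against 22.6% (21.6 to 23.6) of isolated gene-end elements, a difference of 13.3 points (9.78 to 17.0). Inside genes the shares were 6.73% and 3.74% (difference 2.99, 1.82 to 4.30). Between genes they were 7.02% and 4.01% (difference 3.01, 1.80 to 4.37). Cluster elements were thus called at 72 h more often than isolated ones in each of the 3 locations. Gene ends, where such calls were most frequent, were the scarcer location in clusters. By median, cluster elements were also wider than isolated ones in each location, and location and width were not held fixed together.

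**Figure D3:**
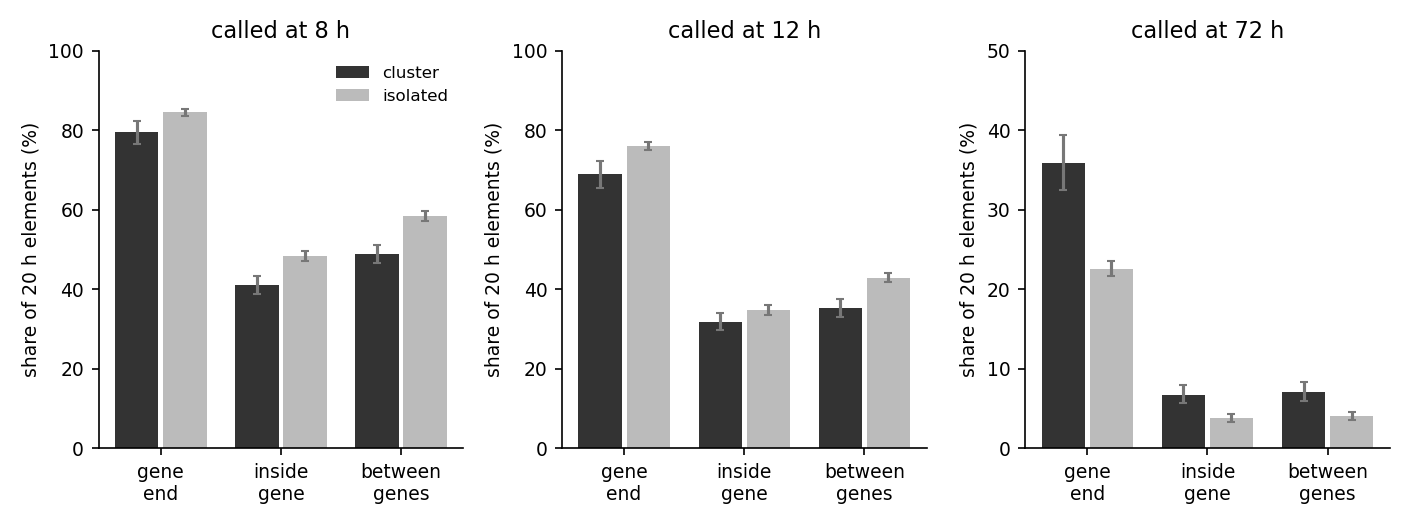
Share of 20 h elements (%) called at 8 h, 12 h and 72 h, for cluster and isolated elements at gene ends, inside genes and between genes; bars start at 0, error bars are Wilson 95% intervals, and the axis of the 72 h panel is shorter. Cluster elements lie below isolated ones at 8 h and 12 h and above them at 72 h, for example 35.9% against 22.6% at gene ends.

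Width, too, went with calls at other stages. A wider element meets the rule of 1 bp overlap more easily, and how much this adds to its share was not tested. In the narrowest of 5 width classes (320 to 490 bp), 27.7% of cluster and 51.4% of isolated elements were called at 8 h, a difference of -23.7 points. In the widest (940 to 2950 bp) the shares were 80.3% and 90.7%, a difference of -10.4 (-13.2 to -7.73). The difference was negative in all 5 classes at 8 h and at 12 h. At 72 h it went from -1.21 points in the narrowest class to 3.29 in the widest, and each of the 5 intervals held 0.

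Elements of one cluster differed among themselves. The widest element of each cluster was called at 8 h in 73.8% of cases (70.9 to 76.5), at 12 h in 63.4% and at 72 h in 29.0% (26.1 to 32.0). The other elements were called in 45.0%, 33.8% and 7.23%. A gene end was the site of 35.8% of the widest elements and of 11.8% of the others. By position in the chain the shares differed less, with 53.0% of the outermost (50.7 to 55.2) and 49.5% of the inner elements (47.6 to 51.4) called at 8 h.

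Counted by cluster, most held a mixture. At 8 h, 82 clusters had every element called and 76 had none, and the median was 50% of a cluster's elements. At 12 h, 41 had every element called and 180 none, with a median of 40%. More elements were called at 8 h than at 12 h in 446 clusters and fewer in 134. In 59 clusters no element had been called at 8 h or 12 h, and in 56 every element was called at 20 h alone. At 72 h no cluster had every element called, 539 had none, 280 had 1, 91 had 2, 19 had 3 and 3 had 4. Where a single element was called at 72 h, it was the widest of its cluster in 182 of 280 cases. Clusters with a gene-end element had an element called at 72 h in 56.0% of cases (51.7 to 60.2), and those without in 23.7% (19.7 to 28.3).

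The spans were also searched for elements of the other lists. There were 2335 elements of the 8 h list in the cluster spans, and 78 of them overlapped no 20 h element. For 12 h these numbers were 1792 and 47, and for 72 h 535 and 4. Since 20 h elements covered 44.7% of the spans and gaps were short, the rule itself makes such overlap frequent, and nothing is read from these numbers. The same rule applied to the other lists gave 934 clusters at 8 h, 239 at 12 h and 3 at 72 h, which held 7.50%, 3.45% and 0.294% of those lists. Of the 20 h clusters, 219 (23.5%) overlapped a cluster of the 8 h list, which was 23.4% of the 8 h clusters. With the 12 h list, 99 of the 20 h clusters (10.6%) overlapped 100 of its clusters (41.8%). The lists differ in length and unknown depth, which these numbers cannot be told apart from.

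Genes were placed on scaffolds by inference, since the annotation table of the same assembly, Spur_5.0, gives no scaffold and no strand. On these scaffolds lay 902 clusters. Of these, 517 (57.3%) held an end of at least 1 gene, 185 (20.5%) lay inside a gene body without reaching its ends, and 200 (22.2%) overlapped no gene. The last had a median distance of 7911 bp to the nearest gene. At least 3 gene ends lay in 41 clusters (4.55%), and 20 (2.22%) overlapped a gene for a tRNA, snRNA or other small RNA. Clusters made up between 5.67% and 15.3% of the 20 h elements of a scaffold.

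Clusters also lay near each other. Another cluster lay within 20000 bp of 153 clusters (16.4%), forming 68 groups, of which 15 had at least 3 clusters and 2 had 4. The group with the most elements lay on NW_022145605.1 from 26762431 to 26877510. It held 4 clusters with 4, 10, 8 and 30 elements in 115 kb. Of these 52 elements, 25 were called at 8 h, 12 at 12 h and 4 at 72 h, while 25 were called by no other list. For these counts and those of single clusters below, the shares of all cluster elements were 50.9%, 39.9%, 11.7% and 42.5%. All 20 h elements had 61.2%, 49.3%, 10.8% and 33.4%. The first 2 clusters of the group overlapped the gene Tbx2/3 (26739315 to 26775399), which encodes a T-box transcription factor of the ectoderm. The other two lay 19211 and 43761 bp beyond the end of that gene and overlapped no gene.

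The cluster of 30 elements was the longest of all, 58350 bp from 26819161 to 26877510. Its nearest gene was LOC576476, 4372 bp away on the far side from Tbx2/3, and with no strand or expression value here neither gene can be called its target. Of its 30 elements 16 were called at 8 h, 7 at 12 h and 3 at 72 h, while 12 were called by no other list. These counts are to be set against the shares of all elements just given. The 7th to 12th elements, from 26835491 to 26842890, were called at no other stage. The 3 called at 72 h were the 19th, 20th and 22nd, between 26855731 and 26862260. They were 1310, 1190 and 1300 bp wide, and each had been called at 8 h and 12 h as well. Without this cluster the differences between cluster and isolated elements were -14.4 points for the 8 h list and 1.15 for the 72 h list.

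**Figure D4:**
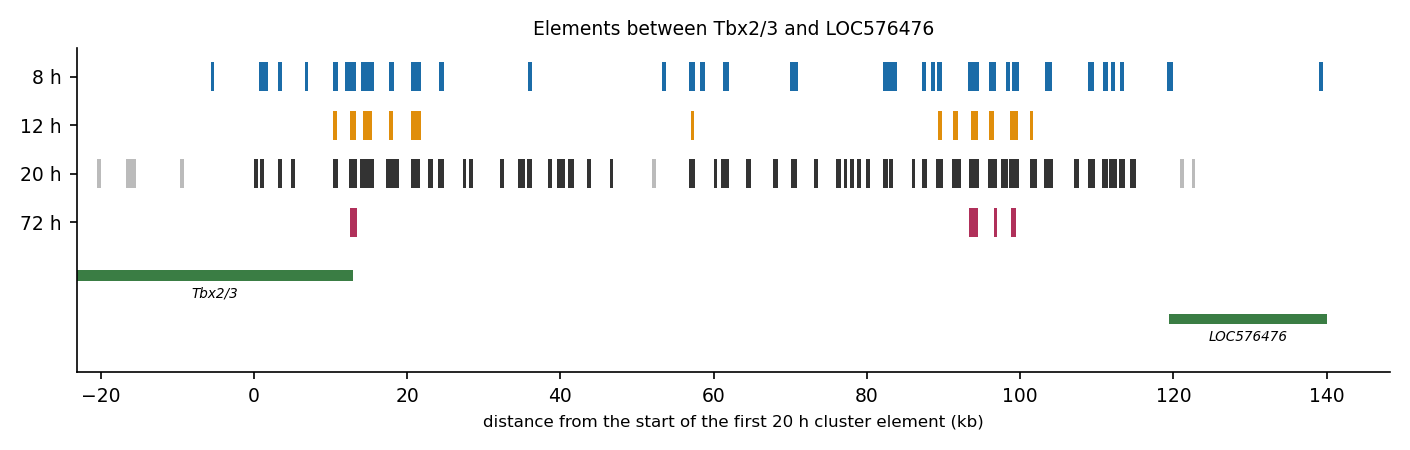
Elements of the 8 h, 12 h, 20 h and 72 h lists (one row each) and genes (green) around the 4 clusters next to Tbx2/3, as distance in kb from the first 20 h cluster element. Black marks 20 h elements in clusters and grey those outside; the 30-element cluster fills the right of the plot and 4 elements are seen at 72 h.

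The next largest clusters lay at genes that carry only a locus number or at none. The cluster of 14 elements (NW_022145612.1, 37036531 to 37059090) overlapped LOC581217 and LOC100892588 and had 7 elements called at 8 h, 6 at 12 h and 2 in the 72 h list. The cluster of 13 (NW_022145601.1, 12538641 to 12559720) overlapped LOC592057, and it had 2 elements called at 8 h, 6 at 12 h and 4 in the 72 h list. A cluster of 12 on NW_022145613.1 (27401301 to 27422260) overlapped no gene, lay 7658 bp from LOC583821 and had 7 called at 8 h and 7 at 12 h. The other cluster of 12, on NW_022145598.1 (20505581 to 20524740), lay 4219 bp from LOC581339 and had 8 of its elements at 20 h alone. The clusters of 12 thus differed in how many of their elements were called earlier, a difference that was not tested.

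A cluster of 11 on NW_022145615.1 (18501081 to 18523980) had most of its elements in the other lists. It had 8 called at 8 h, 9 at 12 h and 4 at 72 h, overlapped LOC576072 and began 15181 bp after dri. The 3 clusters with 4 elements called at 72 h were this one, that at LOC592057, and a cluster of 8 on NW_022145612.1 (15363151 to 15376170). The last had 1 element at 8 h, 2 at 12 h and 4 at 72 h, and lay 6280 bp from LOC753187. At the other extreme, a cluster of 9 on NW_022145594.1 (27524551 to 27541320) overlapped LOC589676 and LOC115921015, and none of its 9 elements was called at any other stage. A cluster of 11 lay 15673 bp from LOC590237, with 6 called at 8 h, 7 at 12 h and 1 at 72 h. Another of 11, which lay 6731 bp from LOC576170, had 4, 2 and 1. That over LOC575259, also of 11, had 5, 4 and 3. A cluster of 10 that lay 21 bp from LOC592889 had 2, 2 and 0, with 8 elements at 20 h alone.

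Genes of known developmental role were compared by symbol with a list of 123 regulator and signalling symbols, of which 47 were placed. A gene had a cluster if a cluster overlapped its body or the 10 kb either side. This held for 4.89% of the 24774 protein-coding genes. It held for 16 of the 47 regulatory genes, 34.0% (22.2 to 48.3), a difference of 29.2 points (17.3 to 43.4). Genes with a name in place of a locus number had a cluster in 18.9% of cases (14.5 to 24.2, 47 of 249). Against these the difference was 15.2 points (2.16 to 30.1). The regulatory genes are themselves part of the named genes and of the protein-coding genes, so the groups compared overlap. The intervals of both differences treat the groups as separate. This list and the gene lists below were chosen with earlier results of these data known. Their shares are therefore descriptions and not independent evidence. Named genes were longer, with a median of 18870 bp against 10226 bp for all protein-coding genes and 17748 bp for the regulatory list. With gene length classes held fixed the difference from all protein-coding genes was 28.3 points.

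Regulators of endoderm and mesoderm were among the 16. FoxA, a forkhead factor of endoderm (NW_022145611.1, 31436173 to 31439051), lay in a cluster of 11 elements from 31419781 to 31440940, of which 2 were called at 8 h, 4 at 12 h and 1 in the 72 h list. The element at its gene end, from 31438851 to 31439590, was the one called at all 4 stages. The 7 elements called at 20 h alone lay between 31422601 and 31437900, the last of them inside the gene and the others on one side of it. GATAc, which encodes a zinc finger factor of nonskeletogenic mesoderm (NW_022145612.1, 11500266 to 11556165), held a cluster of 9 and a cluster of 4 inside its body. In the first, 4 elements were called at 8 h and 1 at 12 h, and in the second none at any other stage. GATAe, which acts in endoderm, had a cluster of 5 with 3 called at 8 h, 1 at 12 h and 1 in the 72 h list. The cluster at gcm, which specifies pigment cells, had 6 elements with 4 called at 8 h, 2 at 12 h and 0 at 72 h.

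Ectoderm and broadly acting regulators followed. Dlx, a homeobox gene, had a cluster of 7 and, 3970 bp from the gene, a cluster of 5. They had 4 and 2 elements called at 8 h and 2 and 1 at 72 h. BMP2/4, a TGF-beta family ligand gene of the dorsal-ventral axis, had 6 elements, 4 called at 8 h, 2 at 12 h and 2 in the 72 h list. The homeobox gene otx had clusters of 5 and 4 elements, 2 and 2 called at 8 h and 2 and 3 at 12 h. FoxJ1, a regulator of motile cilia, had 6, with 3 called at 8 h and 3 at 12 h. SoxB1, an HMG-box factor gene, had a cluster of 6 elements 9173 bp away, with 4 called at 8 h and 4 at 12 h. IrxA, a homeobox gene, had a cluster of 5 elements, with 2 called at 8 h, 1 at 12 h and 1 in the 72 h list. This cluster was at one end of the other group of 4 clusters, of which another overlapped LOC575096. The whole group held 21 elements in 57.2 kb, 12 called at 8 h, 3 at 12 h and 1 in the 72 h list.

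The cluster of 6 in SpRunt-1, a runt-domain factor gene (NW_022145607.1, 7888965 to 7924680), had no element called at 8 h and 1 at 12 h. The cluster of 4 in Klf7, a zinc finger gene, had none called at any other stage. Elk, an ETS factor gene, had 5 elements, 1 of them called at 8 h and 4 at 20 h alone. dri, which encodes an ARID-domain regulator, had 4, with 2 called at 8 h and 0 at 12 h, and the nuclear receptor gene SHR3 had 5, with 4 and 3. The 20 clusters beside regulatory genes held 117 elements, with 43.6% called at 8 h, 30.8% at 12 h, 11.1% by the 72 h list and 48.7% in the 20 h list alone. Over all cluster elements these shares were 50.9%, 39.9%, 11.7% and 42.5%. The 31 placed regulatory genes without a cluster included Alx1, ets1, erg, snail, delta, Wnt8, hh and eve.

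**Figure D5:**
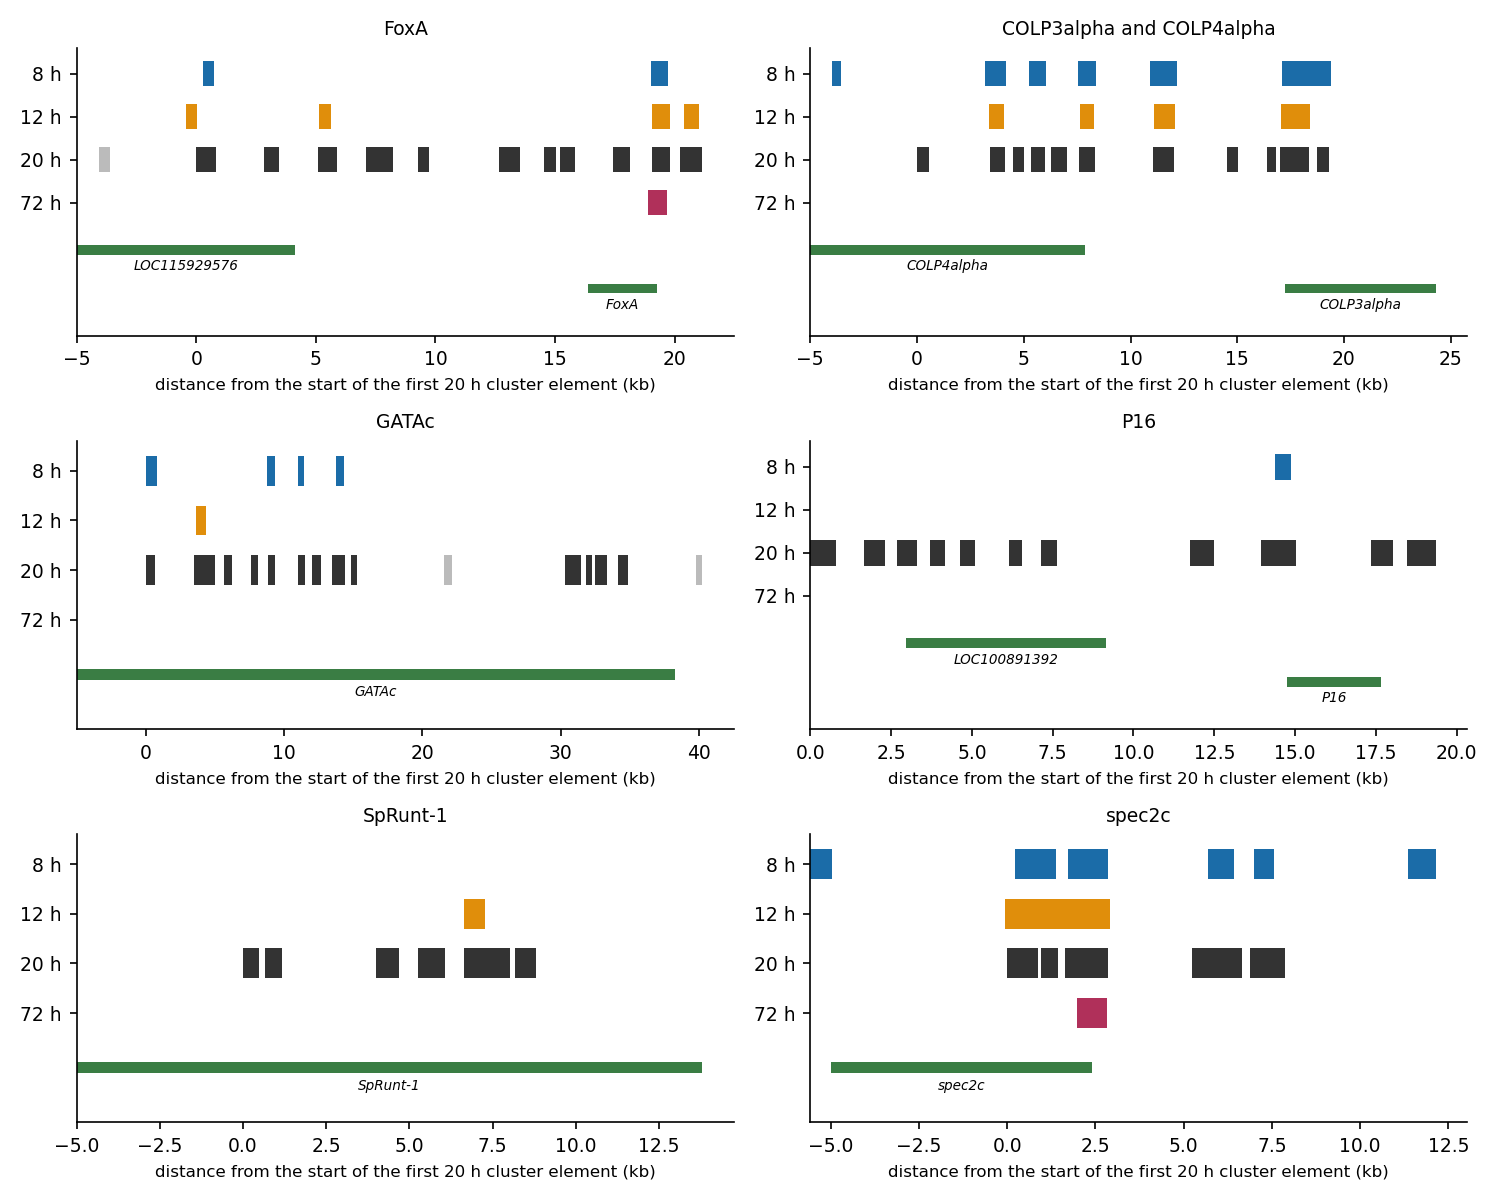
Elements of the 4 lists (one row each) and genes (green) at 6 loci, as distance in kb from the first 20 h cluster element; black marks 20 h elements in clusters and grey those outside. The clusters at P16 and SpRunt-1 have at most 1 element at 8 h or 12 h, while all 5 elements at spec2c overlap an 8 h element.

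Clusters at genes of the larval skeleton consisted mostly of elements called at 20 h alone. Of 10 placed skeletogenic effector genes, 7 had a cluster (70.0%, 39.7 to 89.2), against 4.89% of protein-coding genes, and 3, COLP1alpha, COLP2alpha and msp130, had none. These list members share clusters and lie partly side by side, so they are not independent. P16, which encodes a membrane protein of skeleton-forming cells (NW_022145615.1, 10667000 to 10669900), had a cluster of 7 elements 7139 bp away, over LOC100891392, none called at any other stage, and a cluster of 4 over its body, with 1 called at 8 h. The spicule matrix gene SM29 (NW_022145602.1, 7916731 to 7927690) had a cluster of 6 with none called elsewhere. A 12 h element in the span of that cluster overlapped none of the 6. Its other cluster, of 5 elements with 2 called at 8 h, lay 5480 bp away inside LOC576354. PM27, also of the spicule matrix, had 5 elements, 1 called at 8 h and 1 at 72 h. SM37 and SM50 shared a cluster of 4, which lay 5292 bp from SM50, with 1 called at 8 h.

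The cluster at the collagen genes COLP3alpha and COLP4alpha had more elements called earlier. The cluster of 11 elements that covers the space between them and reaches into both (NW_022145597.1, 20051551 to 20070860) had 6 called at 8 h, 4 at 12 h and 0 at 72 h. Over the 7 clusters at skeletogenic genes 26.2% of 42 elements were called at 8 h, 9.52% at 12 h and 2.38% at 72 h, while 73.8% were called by no other list. All cluster elements had shares of 50.9%, 39.9%, 11.7% and 42.5%, and all 20 h elements 61.2%, 49.3%, 10.8% and 33.4%. That these genes hold more elements at 20 h than at 12 h was known when the clusters were chosen, so the shares are not independent evidence of it.

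Clusters at listed genes of the ectoderm and cytoskeleton consisted mostly of elements called earlier. Of 7 placed genes, 3 had a cluster (42.9%, 15.8 to 75.0), against 4.89% of protein-coding genes. CyIIIa, SPEC1, cyiiib and spec2d had none. spec2c, a calcium-binding protein gene of the aboral ectoderm, had 5 elements, and 5 were called at 8 h, 3 at 12 h and 1 in the 72 h list. Its span held 4 elements of the 8 h list and 2 of the 12 h list, and in each of these lists 1 element overlapped 2 of these 5. ARS, the arylsulfatase gene, had 5, with 3 called at 8 h, 4 at 12 h and 2 at 72 h, and the cytoskeletal actin gene CyI had 4, with 3, 2 and 1. Together 78.6% of these 14 elements were called at 8 h and 14.3% at 20 h alone, against 50.9% and 42.5% of all cluster elements and 61.2% and 33.4% of all 20 h elements. With 3 clusters, a difference from the skeletogenic clusters was not tested.

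The share of small RNA genes with a cluster beside them is given by class, next to 4.89% of protein-coding genes. Median gene lengths were 73 to 161.5 bp in these classes and 10226 bp for protein-coding genes, so the stretch searched was shorter. Neighbouring genes share clusters, while the intervals count each gene as separate and are too narrow. Differences between classes were not tested. Of 53 placed microRNA genes, 9 had a cluster within 10 kb (17.0%, 9.20 to 29.2), at 5 different clusters. These 5 are given in full, and naming them was decided after their values were seen. Mir92a, Mir92b and Mir92c shared a cluster of 9 elements with 3 called at 8 h, 6 at 12 h and 3 at 72 h, and the cluster of 7 beside Mir219 had 5, 2 and 2. The cluster of 5 over Mir9 had 4 called at 8 h, 3 at 12 h and 0 in the 72 h list. A cluster of 4 beside Mir2001, Mir252a and Mir252b had 1 called at 8 h, and a cluster of 4 beside Mir2003 had 2, and neither had any called at 12 h or 72 h. Of 954 tRNA genes, which lie in arrays, 110 (11.5%, 9.66 to 13.7) had a cluster, at 27 different clusters, and of 256 snRNA genes 17 (6.64%, 4.19 to 10.4), at 5. Among 101 snoRNA genes 3 had one (2.97%, 1.02 to 8.37), all at 1 cluster. None of 182 rRNA genes had one, which allows a share of up to 1.65% if the limit is set at 3 counts, and of up to 2.07% by the Wilson interval. Histone genes named by symbol had a cluster at 1 of 4, H2A.F/Z, with 3 of its 4 elements called at 8 h.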

How the data were processed

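The deposited files were 4 peak lists, 1 per stage, with scaffold, start and end and no header. Per the labels' titles and descriptions, each holds dREG peaks of all PRO-seq libraries of its stage on the Sp 5.0 genome. Alignment, pooling and the settings of dREG were not given in the sources used here. The 4 quick PRO-seq libraries, 2 of 72 h and 2 of red spherule cells, were not analysed here. Positions were in steps of 10 bp and are printed counting from 1.

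Elements were sorted, chained and overlapped in Python 3.11.15 with numpy 2.4.6, pandas 2.3.3 and scipy 1.17.1, and the procedures were tested on simulated data. The members and gene lists were chosen with earlier results of these data known. Genes came from the RefSeq table of Spur_5.0. Its runs of rising start positions with at least 900 genes were each placed on the scaffold with the highest share of gene ends that had an 8 h element no more than 500 bp away. This placed 30064 of 33503 genes in 21 runs. On the chosen scaffold 18.8% to 33.6% of gene ends were near an element, and on the next best 8.28% to 14.2%. The scaffold accessions of neighbouring runs ascended in 20 of 20 cases, an order the placement did not use. The genes named were those at the 10 largest, 5 longest, 5 richest at 72 h and 5 richest in elements at 20 h alone, and listed genes. The microRNA genes and the named genes outside the lists were added after their values were seen. Shares have Wilson intervals and differences Newcombe intervals. The interval with the cluster as the unit used the variance of a ratio over clusters. Promoter motifs had been planned and were not analysed, since no sequence was used here. Product descriptions were not used either, so genes with a locus number were given no role.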

Additional observations from a re-analysis of the deposited data

Results flagged for a closer look

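The contrast of cluster with isolated elements had opposite signs at the earlier stages and at 72 h. It was -14.4 points at 8 h and -13.1 points at 12 h, and 1.13 points at 72 h. Each stage had 1 pooled list, so the difference between stages was not tested. The 72 h list held 4425 elements and the 8 h list 56158, and the part of list length in this result was not tested.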

How the results depend on the processing

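No paired analysis was possible because each list pools the libraries of its stage, and for the same reason no replicate could be left out. The number of clusters, 932, was 569 with gaps of up to 2000 bp, 1511 with gaps of up to 5000 bp and 177 for chains of 6 or more. Merging elements 100 bp or less apart gave 854. The differences between cluster and isolated elements kept their direction at 8 h, 12 h and 72 h under all 11 alternatives each, though at 72 h the interval held 0 with gaps of up to 2000 bp (0.931, -0.300 to 2.26) and on the placed scaffolds. The means over width classes and locations have no interval. With equal weight for 5 width classes the difference was -16.5 points at 8 h, -14.9 at 12 h and 0.560 for the 72 h list, the last against 1.13 without such weights. Without gene-end elements it was -8.77 at 8 h, -5.48 at 12 h and 2.99 at 72 h. With 50% of both elements overlapping it was -14.7 at 12 h. Chosen after seeing the data, equal weight for 3 locations gave -7.30, -5.94 and 6.43, and isolation by 10 kb gave -16.4 at 8 h and -15.3 at 12 h. Against named genes, also chosen after seeing the data, the difference of regulatory genes was 15.2 points. The unknown depth of the lists limits every share.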

Other observations

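Named genes outside the lists also lay beside clusters, and these examples were chosen after their values were seen. Over all cluster elements the shares called were 50.9% at 8 h, 39.9% at 12 h and 11.7% at 72 h. Over all 20 h elements they were 61.2%, 49.3% and 10.8%. EGF2 and EGFIII, genes named for epidermal growth factor, had clusters of 9 and 7 elements, with 6 and 6 called at 8 h and 6 and 6 at 12 h. The homeobox genes Hbox7 and NK2.2 had 6 each, with 4 and 3 called at 8 h. SpAN, a metalloprotease gene, had 5, of which 4 were called at 8 h, 4 at 12 h and 3 at 72 h. HMG1 had a cluster of 4 elements that all lay at gene ends, with 4 also called at 8 h, 4 at 12 h and 2 in the 72 h list. The clusters of REJ8 and SpZ12-1 had 4 of 4 elements called at 8 h, 3 of 4 at 12 h and 0 at 72 h. Other named genes had clusters with fewer calls. At eif4a 1 of 4 elements was called at each of 8 h, 12 h and 72 h. The cluster 4119 bp from NK2.1 had 2 of 4 called at 8 h and 0 at 12 h and 72 h. That 7105 bp from BMP1 had 3, 1 and 1 of 6.

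With the 8 h or the 12 h list as the base, cluster elements were called at later stages more often than isolated ones. The 20 h base went the same way at its later stage, 72 h (1.13 points), and the other way at 8 h and 12 h. Clusters of the 8 h list, by the same rule, held 4211 elements, of which 46.3% were called at 20 h, against 38.0% of 30982 isolated 8 h elements, a difference of 8.35 points (6.75 to 9.95). At 12 h the shares were 47.1% and 39.4%, and at 72 h 9.43% and 6.38%. For clusters of the 12 h list, 67.3% of 1055 elements were called at 20 h, against 58.7% of isolated ones, a difference of 8.55 points (5.58 to 11.4). At 8 h the shares were 78.2% and 76.8%, and the interval of that difference (-1.27 to 3.85) held 0.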
